A study of Mus musculus with 220 samples.

Results

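BUB/BnJ is an inbred mouse strain, and its hepatic transcriptome was set against that of the other classical inbred strains of the Ath-HMDP population. The animals were female F1 mice with an inbred strain as mother and, as father, a C57BL/6J male transgenic for human CETP and APOE-Leiden, so that every mouse, the comparison mice included, held 1 C57BL/6J genome and both transgenes. All were fed chow over the first 8 weeks, then a Western diet over 16 more, and were 24 weeks old. Members were chosen by their label: BUB/BnJ was the maternal strain of 3 of the 220 mice, and the comparison strains were those whose names do not place them in a recombinant inbred panel (BXD, AXB, BXA, CXB, BXH), which left 28 strains with 62 mice. Of these 28 strains, 2 had 1 mouse, 18 had 2 and 8 had 3. No source used here gives the sites and copy numbers of the transgenes. The 3 BUB/BnJ mice had the consecutive numbers 64, 65 and 66 in their titles and are called mouse 1, 2 and 3. Litter, cage and day of collection were not given, so the strain cannot be told apart from what these 3 mice shared, and p-values over mice measure only the spread between mice of a strain.

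An F1 mouse carries 1 copy of each autosomal gene from either parent, so a difference between 2 such strains compares their maternal alleles on a constant C57BL/6J background. A variant of the maternal strain that acts on its own gene can at most change the maternal copy, and the paternal copy keeps its C57BL/6J activity. For some genes named below, such as H2-Ea, C57BL/6J itself read low. The liver after a long Western diet is a fatty organ in which hepatocytes make lipoproteins, bile acids, acute phase proteins and drug-metabolizing enzymes, while Kupffer cells, sinusoidal endothelial cells and stellate cells line its capillaries.

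Values are log2 signals from robust multi-array averaging (RMA), 1 array per mouse, on a scale where the median probe set averaged 3.46. A step of 1 is a doubling of signal. Hepatocyte markers averaged 12.12, 12.11 and 12.23 over 13 genes in the 3 BUB/BnJ mice, within the 11.99 to 12.39 of the 62 other mice, and 13 pancreatic acinar markers averaged 3.29, 3.19 and 3.13, against 3.09 to 3.38. Differences are the BUB/BnJ mean minus the average of the 28 other strain means. They were tested with limma over mice, and genes with a Benjamini-Hochberg adjusted p under 0.05 are called. A stricter question, whether BUB/BnJ lay outside the spread from strain to strain, was put to the same genes with limma on 29 strain means.

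Over mice, 1335 of 17097 genes were called (7.81%), 675 of them higher in BUB/BnJ (3.95% of all genes) and 660 lower (3.86%). Most of these differences were small. The median absolute difference among called genes was 0.37, 991 of the 1335 differed by under 0.5, and 66 differed by over 1, with 47 of the 66 higher and 19 lower. In 305 of the called genes the BUB/BnJ mean was above that of every other classical strain, and in 287 it was below all of them. Over all 17097 genes, called or not, these counts were 521 and 448. The median difference over all genes was 0.004. The count rested heavily on mouse 1: without it 502 genes were called, against 979 without mouse 2 and 996 without mouse 3.

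Against the spread of strain means, 3 of 17097 genes (0.0175%) stood apart, and 682 had an unadjusted p under 0.05. Slc37a3, a member of the sugar-phosphate exchanger family, read 5.13, 5.11 and 4.89 in the BUB/BnJ mice, against a lowest value of 5.68, a median of 6.15 and a highest of 6.48 in the other mice. No BUB/BnJ mouse reached the lowest other mouse. Its difference was -1.09 ± 0.09 (SE; limma adjusted p = 1.72e-19 over mice), the 28 other strain means lay between 5.80 and 6.32, and it kept its call on strain means at adjusted p = 1.07e-05. Rpp25l, which encodes a relative of the Rpp25 subunit of ribonuclease P, read 7.74, 7.50 and 7.87 in BUB/BnJ, against 6.64 to 7.45 with a median of 7.06. It too was higher in each BUB/BnJ mouse than in any of the 62, by 0.64 ± 0.08 on average (limma adjusted p = 6.66e-11 over mice and 0.0456 on strain means). The call on strain means was lost among probe sets with a mean of at least 4 (limma adjusted p = 0.0606), with centred arrays (0.0774), with strains of over 1 mouse (0.0781), with trended and robust variances (0.102) and without mouse 3 (0.0621), whereas that of Slc37a3 was kept in each of these. Cyp4a31, a fatty acid hydroxylase of the Cyp4a cluster, read 3.38, 5.07 and 5.10 in BUB/BnJ, against 2.61 to 4.14 with a median of 3.14. Here mice 2 and 3 were above every other mouse and mouse 1 was not, and the call on strain means (limma adjusted p = 0.00717) was lost without mouse 2 (0.0671) or 3 (0.0621).

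Counted by probe set, 6 of 45037 stood apart, 4 of them higher. Besides those of the 3 genes, these included secondary probe sets of 2 genes whose main probe set did not differ. A probe set of Clta, the clathrin light chain A, read 8.49, 8.94 and 8.92 in BUB/BnJ, against 8.95 to 9.84 in the other mice, whereas the brighter probe set of the same gene differed by 0.11 ± 0.06 (limma adjusted p = 0.279). A probe set of Iqcg, a gene of motile cilia, read 3.97, 3.81 and 3.75 in BUB/BnJ, against 2.36 to 3.24, and its brighter probe set differed by -0.05 ± 0.09 (limma adjusted p = 0.822). Probe sets of these 2 genes disagreed. Slc37a3, Rpp25l and Cyp4a31 had 1 probe set each, so no second reading of them was at hand. The part of sequence variants under the probes was not tested for any of these genes. The last probe set was unnamed here. It read 4.88, 5.31 and 4.71 in BUB/BnJ, against 2.91 to 4.46.

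In 27 of 17097 genes (0.158%) all 3 BUB/BnJ mice lay outside the range of all 62 other mice, 14 above it and 13 below it, and all 27 were also called over mice. Except for Rpp25l, Slc37a3 and Cbs these genes, like Gdpd3, Ctse, Crym and other genes of largest difference, were chosen after their values were seen. The widest rise was that of Tut4, an enzyme that adds uridines to the ends of RNAs, which read 6.71, 6.35 and 6.34 in BUB/BnJ, against 4.90, 5.64 and 6.30 as lowest, median and highest of the other mice (+0.88 ± 0.12, limma adjusted p = 5.45e-09). Tspan4, a tetraspanin of the plasma membrane, read 9.43, 9.54 and 9.48, against 8.22, 8.79 and 9.35. Pdxk, the kinase that activates vitamin B6, read 8.42, 8.47 and 8.36, against 6.98, 7.79 and 8.32. The 3 mice of the strain lay close together in each, and the lowest of them was just above the highest other mouse.

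**Figure D1:**
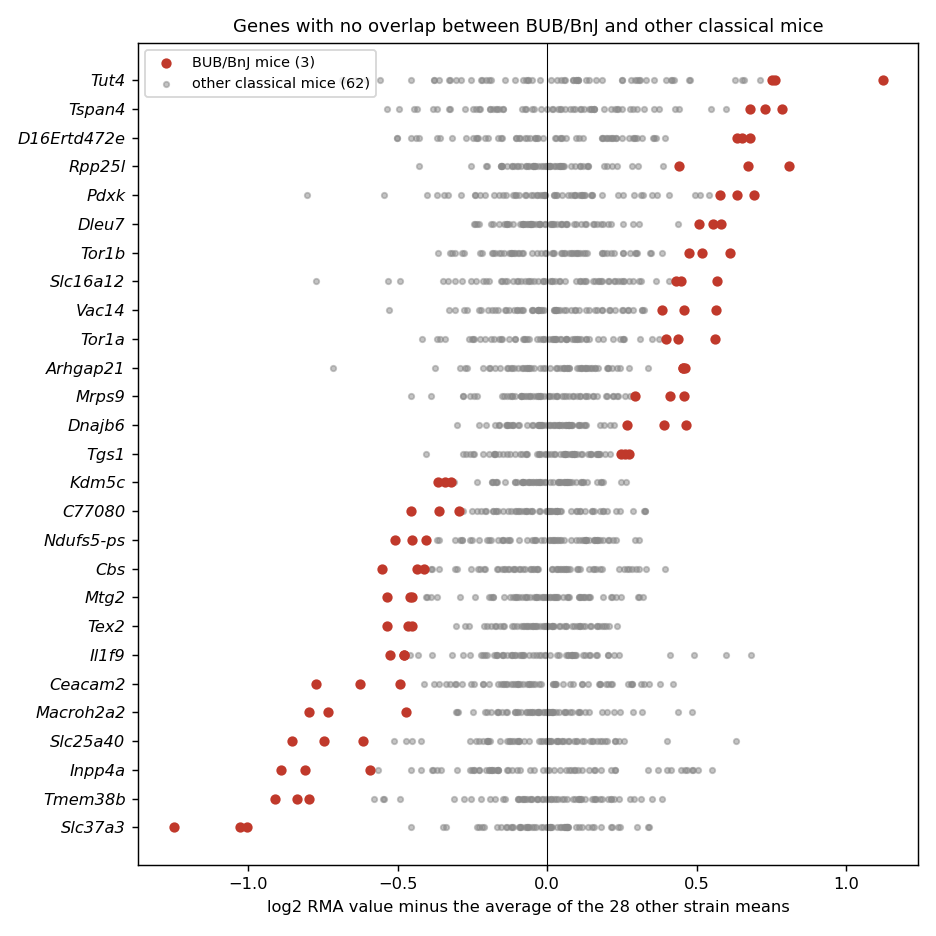
The 27 genes in which no BUB/BnJ mouse overlapped any other classical mouse. Each row is a gene, and the x axis is the log2 RMA value minus the average of the 28 other strain means; red points are the 3 BUB/BnJ mice and grey points the 62 other mice. Slc37a3 lies at the lower end (-1.09 on average) and Tut4 at the upper (+0.88).

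Tor1a and Tor1b encode torsins, ATPases of the endoplasmic reticulum and nuclear envelope, and are direct neighbours among the measured genes in the order of assembly GRCm38.p6. Both were in this group. Tor1a read 8.68, 8.56 and 8.52 in BUB/BnJ, against 7.70 to 8.51, and Tor1b read 8.76, 8.72 and 8.85, against 7.88 to 8.63. The chaperone Dnajb6 was higher by 0.37 ± 0.05 (limma adjusted p = 7.26e-09) at its main probe set and by 0.74 at a second, and neither overlapped the other mice. Mrps9, a subunit of the mitochondrial ribosome, was higher by 0.39 ± 0.10 (limma adjusted p = 0.00534), and this call was lost without mouse 1 (limma adjusted p = 0.107).

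On the lower side, Tmem38b, a potassium channel of the endoplasmic reticulum, read 8.44, 8.41 and 8.33 in BUB/BnJ, against 8.66, 9.25 and 9.63 as lowest, median and highest of the other mice (-0.85 ± 0.07, limma adjusted p = 1.34e-19). Inpp4a, a phosphatase of inositol lipids, read 5.18, 5.48 and 5.26, against 5.50 to 6.62. Slc25a40, a mitochondrial carrier, read 5.44, 5.68 and 5.55, against 5.78 to 6.92. Macroh2a2, a variant histone, read 7.55, 7.62 and 7.88, against 8.04 to 8.83. All 4 were below each of the 62 mice. Cbs, cystathionine beta-synthase, which draws homocysteine into cysteine synthesis, read 9.65, 9.63 and 9.51, against 9.68, 10.06 and 10.46, and its second probe set was lower by 0.70 ± 0.11. Kdm5c, an X-linked histone demethylase, read 7.41, 7.37 and 7.39, against 7.42 to 8.00, but of its 6 other probe sets 1 was called, and that one was higher in BUB/BnJ by 0.25 ± 0.08.

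Several of the larger differences over mice were of another kind, in genes whose strain levels fell into separate groups with BUB/BnJ a member of 1 of them. Ifi44l, an interferon-induced gene, read 2.90, 2.80 and 2.84 in BUB/BnJ, against a lowest value of 2.68, a median of 6.70 and a highest of 8.26 in the other mice. The difference was -2.57 ± 0.16 (limma adjusted p = 1.52e-29). Yet 12 of the 28 other strains lay between 2.75 and 3.05, C57BL/6J among them, and 16 between 6.86 and 8.17, so BUB/BnJ shared the low level with the 12. Gdpd3, a lysophospholipase D, read 3.72, 4.19 and 4.04 in BUB/BnJ, with 18 strains at 3.51 to 4.19 and 10 at 8.08 to 9.40. Slco1a1, an organic anion transporter of the sinusoidal membrane, read 3.26, 3.46 and 4.05, with 18 strains at 2.95 to 4.77 and 10 at 7.33 to 10.49, and lost its call without mouse 1 (-1.67, limma adjusted p = 0.0649).

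Upward, Ctse, the aspartic protease cathepsin E, read 9.46, 9.65 and 10.54 in BUB/BnJ, against 3.07, 8.59 and 10.46 as lowest, median and highest of the other mice (+2.52 ± 0.45, limma adjusted p = 1.74e-05). The other strains split into 9 at 3.15 to 4.29 and 19 that were higher, up to 10.26, and C57BL/6J at 3.27 was in the low set. BUB/BnJ was also in the high set for Cyp2c39, a cytochrome P450 of the Cyp2c cluster (9.94, 9.97 and 10.49, with 21 strains at 8.36 to 10.86 and 7 at 4.43 to 5.63), and for Ifi202b, an interferon-activated gene of the Ifi200 cluster (8.40, 8.70 and 8.03, with 23 strains at 5.55 to 9.35 and 5 at 3.03 to 3.27). Crym, a thyroid hormone binding protein, read 6.33, 6.67 and 6.56, with 11 strains at 6.27 to 7.25 and 17 at 3.37 to 4.60. Against C57BL/6J alone the differences of these genes were wider, at 6.61 for Ctse, 5.35 for Ifi202b, 4.83 for Cyp2c39 and 2.57 for Crym, whereas those of Ifi44l (-0.00, limma adjusted p = 0.998) and Gdpd3 (0.05, limma adjusted p = 0.967) were lost.

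**Figure D2:**
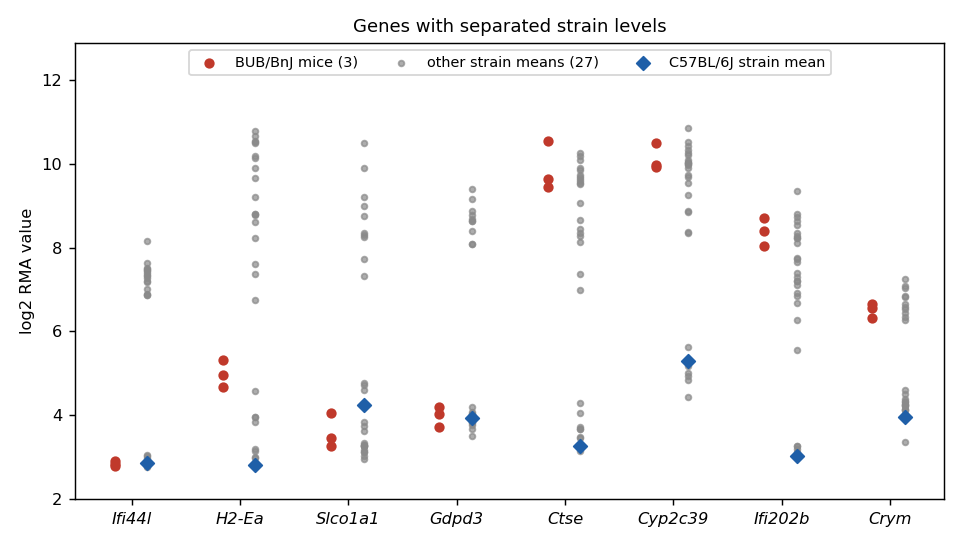
Log2 RMA values of 8 genes with separated strain levels. For each gene the red points are the 3 BUB/BnJ mice, the grey points the means of 27 other classical strains and the blue diamond the C57BL/6J mean; BUB/BnJ lies in the low group for Ifi44l, Slco1a1 and Gdpd3 and in the high group for Ctse, Cyp2c39, Ifi202b and Crym.

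H2-Ea, which encodes the alpha subunit of an MHC class II antigen, read 5.31, 4.96 and 4.68 in BUB/BnJ, against 2.72, 8.43 and 10.95 in the other mice (-2.21 ± 0.37, limma adjusted p = 3.85e-06). C57BL/6J mice are known not to transcribe this gene, and the C57BL/6J mean was 2.80, which BUB/BnJ exceeded by 2.18 (limma adjusted p = 0.0117). BUB/BnJ at 4.98 lay between 10 strains at 2.80 to 4.57 and 18 at 6.76 to 10.80. Among 12 class II genes measured, H2-Ob rose (+0.59 ± 0.12) and H2-Ea and H2-Eb1 (-0.67 ± 0.16) fell, with a median over the list of 0.05, against 0.004 over all genes. H2-Ob read low, at 4.03, 3.96 and 3.46, and its second probe set differed by 0.05 (limma adjusted p = 0.812). Without mouse 1 the calls of H2-Ob (limma adjusted p = 0.0544) and H2-Eb1 (0.0792) were lost. Of 14 class I genes 3 rose and 4 fell, against 2 and 2 without mouse 1, 1 and 4 without mouse 2 and 1 and 3 without mouse 3. With all mice 25% of the class II list and 50% of the class I list were called, against 7.81% of all genes. H2-D1, counted as higher (+0.24), had 3 other probe sets that were called lower, by 1.04 to 1.43. The largest difference was that of H2-T24, which read 3.24, 4.01 and 3.56 in BUB/BnJ, against 3.20 to 5.89 with a median of 4.67. The Cyp2c, Ifi200 and H2 families hold near-identical paralogs that short probes may not separate.

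The probe sets of Hsd17b13, a hydroxysteroid dehydrogenase of hepatocyte lipid droplets, went in opposite directions. The main probe set read 11.02, 11.38 and 11.25 in BUB/BnJ, against 10.83, 11.85 and 12.19 as lowest, median and highest of the other mice (-0.55 ± 0.09, limma adjusted p = 9.76e-07). The second probe set read 7.41, 7.87 and 7.76 in BUB/BnJ, against 2.60, 3.26 and 8.17 (+3.66 ± 0.19, limma adjusted p = 5.63e-36). The 28 other strains fell into 5 with a high second probe set (C3H/HeJ, SJL/J, CBA/J, FVB/NJ and NON/ShiLtJ, at 7.45 to 7.99) and 23 with a low one (2.82 to 3.62), and the main probe set read 11.03 to 11.35 in the 5 and 11.66 to 12.09 in the 23. The split was chosen after the values were seen, and the mean of BUB/BnJ at the main probe set, 11.22, lay within the range of the 5. Against the 4 strains with title numbers under 100 the main probe set was not called (-0.26, limma adjusted p = 0.0929). Among all 650 called genes with a further probe set, another probe set was called in the same direction in 172 and in the opposite direction in 16.

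In the circadian clock list 9 of 18 measured members were called, against 7.81% of all genes. This clock is a feedback loop in which Arntl (Bmal1) with Clock or Npas2 activates the Per and Cry genes, whose products then repress them, while Nr1d2 represses Arntl and the factors Dbp, Tef and Hlf drive output genes. In the liver its phase follows the hour of the day and of feeding. Of the 9, 6 rose and 3 fell, and the median over the list was 0.30. The activators fell. Arntl read 3.84, 4.01 and 4.12 in BUB/BnJ, against 3.47, 5.39 and 7.17 as lowest, median and highest of the other mice (-1.48 ± 0.32, limma adjusted p = 0.000516). Clock was lower by 0.47 ± 0.11 (limma adjusted p = 0.00135), and Npas2, which read 2.52, 2.61 and 2.86, near the floor of the array, by 0.78 ± 0.25 (limma adjusted p = 0.0405). For each of the 3 activators BUB/BnJ had the lowest mean of all 29 strains, although single mice of other strains were as low.

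The repressors and output factors that were called lay the other way. Per3 read 7.64, 7.62 and 7.65 in BUB/BnJ, against 3.74, 6.08 and 8.28 (+1.69 ± 0.38, limma adjusted p = 0.00123). Per2 was higher by 1.05 ± 0.25, Cry2 by 0.45 ± 0.12 and Nr1d2 by 0.37 ± 0.11. Tef read 9.70, 9.49 and 9.77, against 7.06, 8.70 and 9.89 (+1.02 ± 0.23, limma adjusted p = 0.00092). Tspan4, the tetraspanin named above, was the sixth, and it is no part of the feedback loop. Usp2, a deubiquitinase that is transcribed rhythmically in liver and is not on the list, was chosen after its values were seen. It read 8.62, 8.04 and 8.70 in BUB/BnJ, against 3.96, 5.87 and 8.76 (+2.46 ± 0.45, limma adjusted p = 3.43e-05). The 3 BUB/BnJ mice were close together in Per3 and Arntl, genes in which mice of other strains ranged over 3 log2 units or more.

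The labels do not give the hour at which each liver was taken, and its part in these values was not tested. Strains with title numbers under 100, as those of BUB/BnJ, were not alike. In DBA/2J and FVB/NJ Per3 averaged 7.55 and 7.46 and Arntl 4.02 and 4.38, the values next to those of BUB/BnJ in the order of strains, but in SJL/J, the nearest in number, they were 5.74 and 5.19 and in NOD/ShiLtJ 6.74 and 5.94. Set against only the 4 classical strains whose mice all had title numbers under 100 (11 mice), 1 member of the clock list was called. The called member was Tspan4, which is no part of the feedback loop, at 0.80 ± 0.10 (limma adjusted p = 7.25e-09). The median over the list was then 0.08. The differences of Arntl (-0.89 ± 0.35, limma adjusted p = 0.133), Per3 (0.76 ± 0.42, limma adjusted p = 0.35), Per2 (0.58 ± 0.27, limma adjusted p = 0.243), Tef (0.58 ± 0.25, limma adjusted p = 0.186) and Clock (-0.31 ± 0.12, limma adjusted p = 0.125) kept their direction and lost their call, whereas Usp2 kept its call (2.00 ± 0.49, limma adjusted p = 0.00629). The calls of Npas2 and Nr1d2 were lost without any 1 of the 3 mice (limma adjusted p = 0.278, 0.158 and 0.0749 for Npas2 and 0.0983, 0.137 and 0.0987 for Nr1d2, without mouse 1, 2 and 3 in turn), and that of Cry2 without mouse 3 (0.159).

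**Figure D3:**
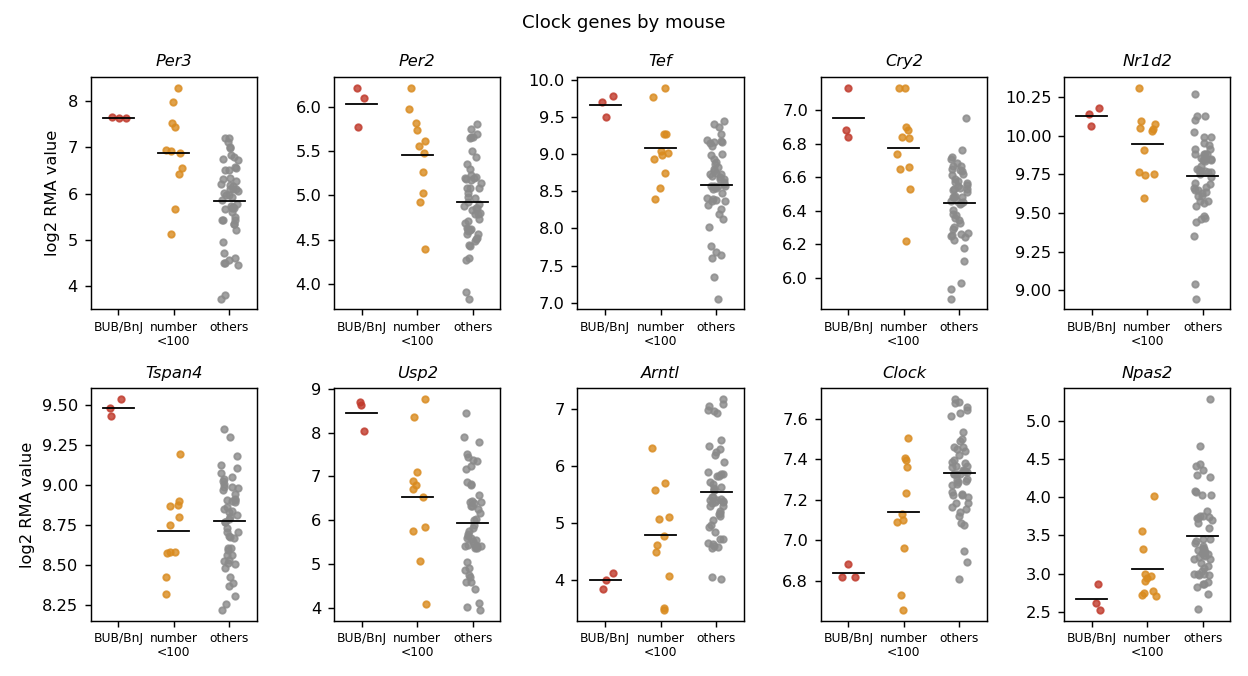
Log2 RMA values of the 9 called members of the clock list, Tspan4 among them, and Usp2. In each panel the points are mice, in 3 groups: BUB/BnJ (3), the 4 other classical strains with all title numbers under 100 (11) and the remaining strains (51), with a line at the mean over mice; BUB/BnJ lies at the high end for Per3 and Tef and at the low end for Arntl and Clock, and the mean of the 11 mice lies between those of the other groups in each panel but that of Tspan4.

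The short motifs through which clock proteins are known to bind DNA were looked for in the promoters, because these genes moved together. The E-box (CACGTG), bound by Arntl with Clock or Npas2, was sought on both strands of each RefSeq promoter of build GRCm38.p6, from 250 bases before the start site to shortly after it, and so were the D-box (TTATGTAA), bound by Dbp, Tef and Hlf, and the element TAGGTCA, bound by the Nr1d and Ror receptors. The first was in 7 of 22 promoters of the list, against 7.15% of all 32851 promoters, the second in 1 of 22, against 0.938%, and the third in 2 of 22, against 2.61%. Tef has more than 1 promoter among them, with an E-box in each of a pair. The stretches of 3 genes that were higher in BUB/BnJ are given here with the matching letters in capitals. Those of Tef and Tspan4 hold an E-box each and that of Per3 a pair of D-boxes.
Per3 D-box, chr4:151044776-151044910, minus strand: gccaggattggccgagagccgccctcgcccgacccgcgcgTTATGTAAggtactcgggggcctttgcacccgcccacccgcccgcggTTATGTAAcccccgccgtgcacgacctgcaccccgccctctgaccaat
Tef E-box, chr15:81802506-81802591, plus strand: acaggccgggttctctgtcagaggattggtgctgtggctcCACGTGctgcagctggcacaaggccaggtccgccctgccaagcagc
Tspan4 E-box, chr7:141476289-141476374, plus strand: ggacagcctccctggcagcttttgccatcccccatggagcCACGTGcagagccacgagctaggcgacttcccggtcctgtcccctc
These are reference sequence and matches of letters only, and the BUB/BnJ sequence was not examined. E-boxes also stood in the promoters of Per1 (0.72 ± 0.28, limma adjusted p = 0.11), Cry1 (0.23 ± 0.13, limma adjusted p = 0.365), Ciart (0.04 ± 0.33, limma adjusted p = 0.974) and Bhlhe41 (0.08 ± 0.08, limma adjusted p = 0.709), which were not called. The element TAGGTCA stood in promoters of Arntl, which was lower in BUB/BnJ, and of Nfil3 (-0.39), which was not called.

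Among targets of PPARa, the receptor that turns on fatty acid oxidation, 6 of 26 rose and 1 fell, with a median of 0.13. This was 26.9% of the list, against 7.81% of all genes. The number that rose was 3, 3 and 1 without mouse 1, 2 and 3 in turn. Against the 4 strains with title numbers under 100 it was 1, and the median was 0.05. Of the 26 genes 21 were highest in mouse 3 and 20 were lowest in mouse 1. Acot3, a peroxisomal acyl-CoA thioesterase, read 9.85, 9.87 and 9.62 in BUB/BnJ, against 4.67, 8.15 and 10.45 as lowest, median and highest of the other mice (+1.77 ± 0.49, limma adjusted p = 0.0128). Its cytosolic relative Acot1 was higher by 1.05 ± 0.29, and Pdk4, the kinase that shuts off pyruvate dehydrogenase, by 0.91 ± 0.28. The thiolase Acaa2 of mitochondrial fatty acid oxidation differed by +0.20 ± 0.05. Fgf21, a hormone secreted by the liver, read 4.70, 4.89 and 4.92, against 4.43, 5.94 and 7.59 (-1.13 ± 0.30, limma adjusted p = 0.00747). The values of BUB/BnJ and the other mice overlapped in Acot3 and Fgf21. Acot3 lost its call without any 1 mouse (limma adjusted p = 0.114, 0.0776 and 0.0501), Acot1 without mouse 3 (0.179), Pdk4 without mouse 2 (0.26) or 3 (0.171), Acaa2 without mouse 1 (0.128) or 3 (0.136) and Fgf21 without mouse 1 (0.106), and against the 4 strains with title numbers under 100 Acot3 differed by 0.36 (0.8).

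Enzymes that process foreign compounds were called in both directions. In the list of the Cyp1, Cyp3 and Cyp4 families and their receptors 4 of 19 rose and 2 fell (median 0.25). Cyp1b1 read 7.55, 7.42 and 7.11 in BUB/BnJ, against 4.36, 6.22 and 7.86 (+1.19 ± 0.24, limma adjusted p = 0.000226). Nr1i3, the constitutive androstane receptor, was higher by 0.63 ± 0.16, while Cyp4b1 (-0.92 ± 0.16, limma adjusted p = 1.1e-05) and Ahr, the receptor known to induce the Cyp1 genes, (-0.35 ± 0.09, limma adjusted p = 0.00852) were lower. Of 24 Cyp2 genes 3 rose and 1 fell, and of 11 carboxylesterases 2 rose. Of these 3 lists 31.6%, 16.7% and 18.2% were called, against 7.81% of all genes. The Cyp2 gene that fell was Cyp2c55, at 7.15, 6.64 and 4.47, and Cyp2c39, named above, was among those that rose. Ces1d, a triglyceride hydrolase, read 11.60, 11.76 and 11.73, against 10.23, 11.05 and 11.77 (+0.68 ± 0.11, limma adjusted p = 5.76e-06). Cyp2g1 was higher by 1.07 ± 0.24 and the glutathione transferase Gstt3 by 0.98 ± 0.21. In the glutathione and NRF2 list 3 of 25 rose (Gstt3, Gstk1 and Gstt2) and 2 fell (Gstm6 and Gstt1). The share called was 20%, against 7.81% of all genes. Against the 4 strains with title numbers under 100, Ces1d differed by 0.36 (limma adjusted p = 0.0791) and Cyp2g1 by 0.45 (0.378). Nr1i3 lost its call without mouse 3 (limma adjusted p = 0.185), Ahr without mouse 2 (0.0577) or 3 (0.26) and Gstt3 without mouse 1 (0.0537).

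The choline and TMAO list covers the flavin monooxygenases that oxidise trimethylamine and the enzymes of methionine metabolism, and 3 of 19 rose and 1, Cbs, fell. These were 21.1% of the list, against 7.81% of all genes. Fmo2 read 8.72, 8.61 and 8.90 in BUB/BnJ, against 5.94, 7.72 and 9.01 (+1.08 ± 0.21, limma adjusted p = 0.000121), and 2 of its 3 other probe sets were called in the same direction. Its mean was the highest of the 29 strains. Fmo5 was higher by 0.37 ± 0.10 and Fmo1 by 0.23 ± 0.07. Fmo5 lost its call without mouse 2 (limma adjusted p = 0.0599) or 3 (0.139), and Fmo1 likewise (0.112 and 0.5). Fmo2 was not called against the 4 strains with title numbers under 100 (0.65, limma adjusted p = 0.0924).

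In the bile acid list 3 of 29 fell and none rose, and this share of called members (10.3%) was near the 7.81% of all genes. Hsd3b7, an enzyme of the first steps of bile acid synthesis, read 10.84, 10.95 and 11.22 in BUB/BnJ, against 11.12, 11.46 and 11.81 as lowest, median and highest of the other mice (-0.46 ± 0.07, limma adjusted p = 1.21e-07), and its mean was the lowest of the 29 strains. The others were Slco1a1 and Fgfr4, the receptor of an intestinal hormone that represses bile acid synthesis (-0.24 ± 0.08, limma adjusted p = 0.0363). The Fgfr4 call was lost without any 1 mouse (limma adjusted p = 0.196, 0.135 and 0.111), and Slco1a1 lost its call without mouse 1 (0.0649). Among retinoid and carotenoid genes, Cyp26a1, which degrades retinoic acid, read 6.34, 6.88 and 6.64, against 3.49, 5.13 and 7.32 (+1.45 ± 0.34, limma adjusted p = 0.00161), and Stra6l, a retinol binding protein receptor, was lower in BUB/BnJ by 0.55 ± 0.09 (limma adjusted p = 3.15e-06). Cyp26a1 did not differ in the same way from C57BL/6J alone (-0.12, limma adjusted p = 0.968). Of 17 genes of fatty acid synthesis limma called 0, with 1 at an unadjusted p under 0.05. Of 19 genes of cholesterol synthesis 1 rose and 1 fell, a share (10.5%) also near that of all genes.

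Genes of the unfolded protein response, which enlarge the folding capacity of the endoplasmic reticulum, were called in 1 direction. None of 21 rose, 5 fell and 20 had a difference below 0, with a median of -0.29. The share called was 23.8%, against 7.81% of all genes. Averaged over the list, the BUB/BnJ mice read 9.36, 9.43 and 9.53, against 9.25, 9.73 and 10.16 as lowest, median and highest of the other mice. Atf5, a transcription factor of the stress response, read 9.55, 9.02 and 9.12, against 9.36, 9.89 and 10.43 (-0.66 ± 0.12, limma adjusted p = 4.2e-05), and Sdf2l1, a cofactor of the chaperone BiP, read 8.08, 8.29 and 8.40, against 8.05, 9.12 and 10.01 (-0.85 ± 0.20, limma adjusted p = 0.00195). The other 3 were Syvn1, Pdia6 and Edem1, which serve folding or degradation in the endoplasmic reticulum. Hspa5, which encodes BiP itself, differed by -0.20 ± 0.10 and was not called (limma adjusted p = 0.264). The number that fell was 8 without mouse 3, 4 without mouse 2 and 11 in a fit of classical mice only. Without mouse 1 only Atf5 remained called, as Sdf2l1 (limma adjusted p = 0.0715), Edem1 (0.395), Pdia6 (0.425) and Syvn1 (0.411) lost their calls, and against the 4 strains with title numbers under 100 the number was 2 and the median -0.06.

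**Figure D4:**
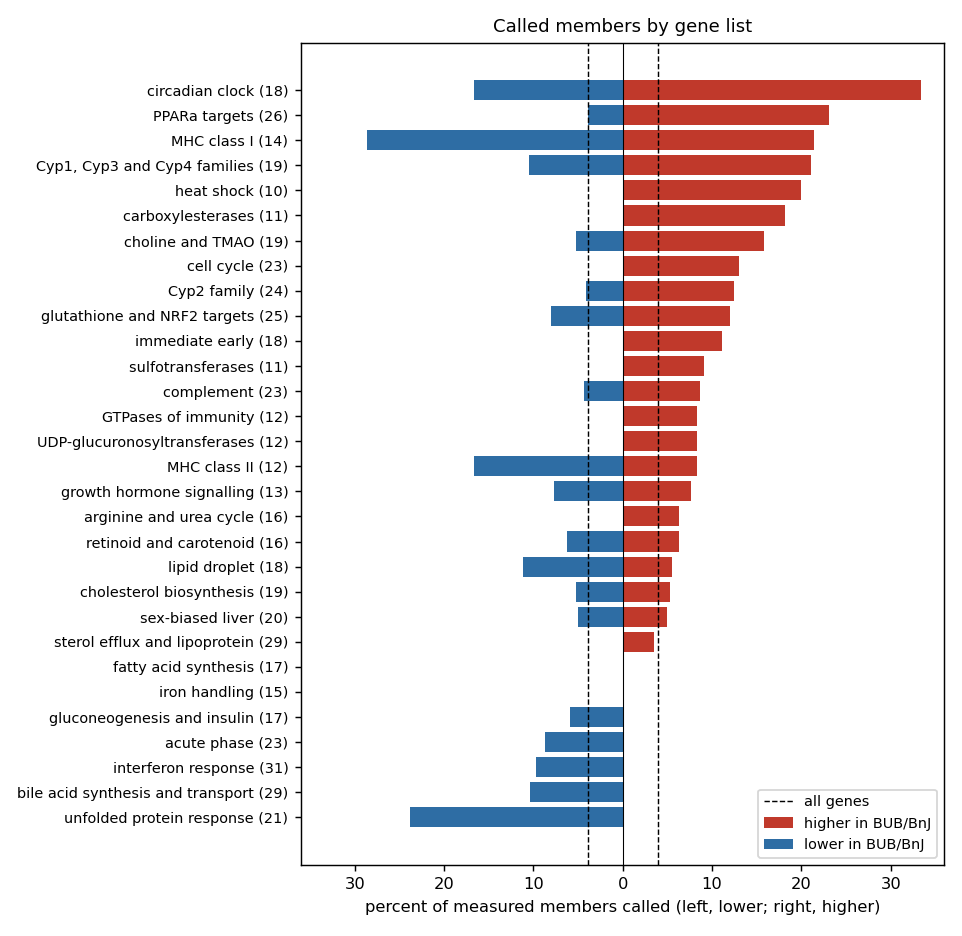
Share of measured members called over mice in each gene list of 10 or more measured genes, cell type markers aside. Bars to the right give the percent higher and bars to the left the percent lower in BUB/BnJ, dashed lines give the same over all genes (3.95% and 3.86%), and the number measured is in brackets; the clock list extends farthest to the right (6 of 18) and MHC class I (4 of 14) and the unfolded protein response (5 of 21) farthest to the left.

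Of the secreted defence proteins, 2 of 23 acute phase genes fell and none rose (8.70% called, near the 7.81% of all genes). Apcs, serum amyloid P, read 11.24, 11.44 and 10.79 in BUB/BnJ, against 10.98, 11.80 and 12.31 (-0.61 ± 0.09, limma adjusted p = 2.93e-07), but was not lower than in C57BL/6J alone (0.10, limma adjusted p = 0.882). Of 23 complement genes 2 rose (C9 and Mbl1) and 1 fell (Cfi), which was 13% of the list, against 7.81% of all genes. C9, the pore-forming component, read 12.22, 12.30 and 12.13, against 11.15, 11.86 and 12.13 (+0.42 ± 0.07, limma adjusted p = 8.32e-06), the highest mean of the 29 strains. In the interferon list 3 of 31 fell (Ifi44l, Eif2ak2 and Stat2) and none rose, a share (9.68%) also near that of all genes, with a median of -0.08, which was 0.15 against the 4 strains with title numbers under 100. Eif2ak2 was lower by 0.56 ± 0.15 and lost its call without mouse 3 (limma adjusted p = 0.207), and Stat2, lower by 0.54 ± 0.14, lost it without mouse 1 (0.536). Mx1 (-0.32 ± 0.22, limma adjusted p = 0.468) and Ifit3 (0.35 ± 0.19, limma adjusted p = 0.332), both of this list, were not called.

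Markers of other hepatic cells moved in a few genes. Of the endothelial, macrophage, neutrophil and B cell lists 11.8%, 7.41%, 9.09% and 18.2% were called, against 7.81% of all genes. Fewer cells of a type and less RNA per cell cannot be told apart in whole liver. Stab2, a scavenger receptor of sinusoidal endothelial cells, averaged 7.25 in BUB/BnJ, with 7.33 and 7.41 in mice 2 and 3 and a lower value in mouse 1, against 7.37, 8.08 and 8.59 as lowest, median and highest of the other mice (-0.82 ± 0.09, limma adjusted p = 2.96e-13), and Lyve1, a hyaluronan receptor of the same cells, was lower by 0.79 ± 0.23 (0.0214). None of the 17 endothelial markers rose, and the list averaged 6.06, 6.48 and 6.07, against 5.59 to 7.05 with a median of 6.44. Among 27 macrophage and Kupffer cell markers, Clec4f, a lectin of Kupffer cells, read 9.52, 9.56 and 10.11, against 5.93, 8.60 and 10.01 (+1.22 ± 0.30, limma adjusted p = 0.00325), and Timd4, a receptor for dying cells, was higher by 1.15 ± 0.34 (0.0249). No other macrophage marker was called, and the list averaged 8.50, 8.69 and 8.59, against 7.84 to 8.94. Lyve1 lost its call without mouse 1 (limma adjusted p = 0.28) or 3 (0.251), Clec4f without mouse 3 (0.0765) and Timd4 without mouse 2 (0.11) or 3 (0.251). Csf3r, a receptor of neutrophils, was lower by 0.66 ± 0.13 and by 0.21 against the 4 strains with title numbers under 100 (limma adjusted p = 0.486). No other neutrophil marker was called. Of the 11 measured 7 were below 0 and 4 above, and the list averaged 4.30, 3.73 and 4.07, against a median of 4.11. Of 11 B cell markers 2 were called, both higher (Ms4a1 by 0.62 and Cd79b by 0.41), while 5 were below 0. Ms4a1 read low, at 3.93, 4.13 and 3.52, and its second probe set differed by 0.08 (limma adjusted p = 0.73). Both calls were lost without mouse 1 (limma adjusted p = 0.2 and 0.217) or 2 (0.255 and 0.265). That of Cd79b was also lost without mouse 3 (0.0735).

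Called genes were counted along the genome, in windows of 20 neighbouring genes with a mean of at least 4 (9484 genes placed, 12.61% of them called). The fullest window held 10 called genes. It ran between Atp5b and Pa2g4, and its members lay in both directions. Cs, citrate synthase, read 9.69, 9.38 and 9.49 in BUB/BnJ, against 9.58, 10.07 and 10.39 (-0.55 ± 0.08, limma adjusted p = 4.5e-07), and Apof, an apolipoprotein that inhibits CETP, was lower by 0.20 ± 0.04. Nabp2 was higher by 0.52 ± 0.09 and Myl6, a myosin light chain, by 0.28 ± 0.06. The next 5 windows held 8 called genes each and began at Nup43, Apoh, H2-D1, Dpy30 and Ms4a4b. In the last of these Ms4a4b read 3.91, 4.71 and 4.95, against 4.07, 5.88 and 7.64 (-1.28 ± 0.26, limma adjusted p = 0.000289), Osbp, an oxysterol binding protein, was lower by 0.39 ± 0.08 and Keg1, a glycine acyltransferase family member, was higher by 1.01 ± 0.27. The windows were chosen after the values were seen. Without mouse 1 Apof (limma adjusted p = 0.136), Nabp2 (0.114), Myl6 (0.15), Ms4a4b (0.0819) and Keg1 (0.0546) lost their calls, as did Keg1 without mouse 3 (0.123).

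The 3 BUB/BnJ mice were alike in most genes. Among the 8248 genes with a BUB/BnJ mean of at least 5, the median range over the 3 mice was 0.26, and in 194 it was over 1. In 172 of these 194 mouse 3 was the one farthest from the middle value, as the lowest in 136 and the highest in 36. Spink1, a trypsin inhibitor, had the widest range with 6.55, 6.40 and 3.31. S100g, a calcium binding protein, read 8.08, 7.78 and 5.45, Cyp2c55 read 7.15, 6.64 and 4.47, Prom1, a membrane glycoprotein of ductular cells, read 9.21, 8.82 and 6.83, and D17H6S56E-5 read 7.66, 7.02 and 5.30. Marco, a scavenger receptor of macrophages, ran the other way, at 3.93, 5.24 and 6.85. In Cyp2c55 mouse 3 was below all 62 other mice (lowest 5.34), and in S100g mice 1 and 2 were above all of them (highest 7.71), while in the other 4 genes each BUB/BnJ mouse was within their range.

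Several gene lists were low together in mouse 3. Other lists were lowest mostly in mouse 1, as were 20 of 26 PPARa targets, 19 of 29 bile acid genes and 17 of 23 complement genes. The share of all genes lowest in each mouse is not given here. Of 19 genes of cholesterol synthesis 17 were lowest in mouse 3. The list averaged 7.50, 7.48 and 6.65 in mice 1, 2 and 3, against 6.29, 7.18 and 8.27 as lowest, median and highest of the other mice. Sqle, squalene epoxidase, read 5.60, 6.06 and 3.91 and Fdps, farnesyl diphosphate synthase, 8.57, 8.65 and 6.70. Cell cycle genes were lowest in mouse 3 in 20 of 23 (list average 5.75, 5.49 and 4.78, against 4.70 to 6.15), glutathione and NRF2 targets in 22 of 25 (10.01, 9.96 and 9.39, against 9.32 to 10.14), and cholangiocyte and ductular cell markers in 10 of 13 (6.28, 6.05 and 5.24, against 4.54 to 6.59). Krt19, a keratin of bile ducts, read 5.35, 4.68 and 3.64. Myc (6.81, 7.30 and 8.55), Gadd45g (7.24, 6.81 and 8.86), Foxq1 (5.29, 5.32 and 7.33) and Onecut1 (5.45, 5.90 and 7.46) were highest in mouse 3, and there Myc, Gadd45g and Foxq1 were above each of the 62 other mice. These genes other than Myc were chosen after their values were seen.

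Calls that involve such genes moved with mouse 3. Without it, Cyp2c55 differed by -0.07 in place of -0.88 (limma adjusted p = 0.944 against 0.0444), Foxq1 by 0.56 in place of 1.24 (0.237 against 6.93e-05) and Myc by 0.29 in place of 0.79 (0.577 against 0.0066), whereas Spink1 differed by 2.40 in place of 1.34 (0.000716 against 0.0421) and was not called without mouse 1 (0.607) or 2 (0.434). S100g was called with all 3 mice (+1.73 ± 0.43, limma adjusted p = 0.00381) but not without mouse 1 (0.247) or 2 (0.109). Without mouse 3 the median difference was 0.92 for the ductular list, in place of 0.22, and 0.33 for cholesterol synthesis, in place of -0.02.

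**Figure D5:**
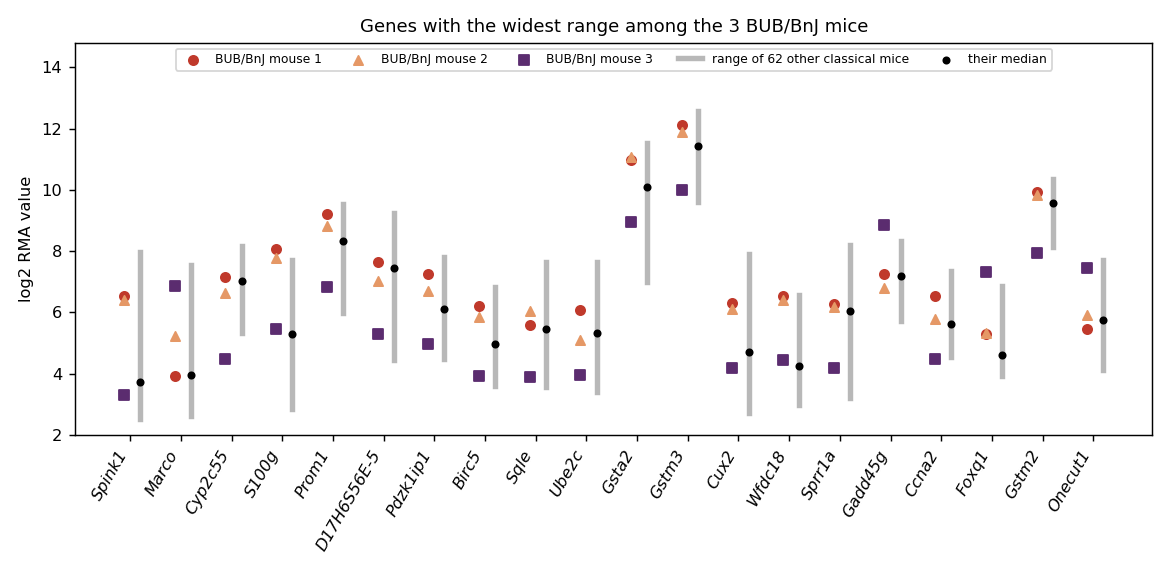
The 20 genes with the widest range among the 3 BUB/BnJ mice. Coloured symbols on the left of each gene give the log2 RMA value of mouse 1, 2 and 3, and the grey bar and black point on its right give the range and median of the 62 other classical mice; mouse 3 is set apart in most genes, lowest in Spink1 (3.31) and highest in Foxq1 (7.33).

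Over the 8237 genes with a mean of at least 5, the strain whose mean lay nearest to BUB/BnJ was SJL/J, with a root mean square difference of 0.257, followed by DBA/2J (0.259), NON/ShiLtJ (0.292), I/LnJ (0.298) and FVB/NJ (0.307). The farthest were SWR/J (0.493) and NOD/ShiLtJ (0.420), and C57BL/6J was eleventh of 28 at 0.328. SJL/J and DBA/2J had 3 mice each, and SJL/J had the title numbers 70 to 72, next to those of BUB/BnJ. The part of the number of mice and of the title numbers in this measure was not tested, nor were neighbours in this order tested against each other. A list of 21 genes was picked from those the study named, and it left out others, such as Nosip and Pvrl2. Of its 19 measured genes 2 were called in liver (10.5%, near the 7.81% of all genes). Cct7, a subunit of the cytosolic chaperonin, was higher in BUB/BnJ (8.92, 8.78 and 8.96, against 8.45, 8.71 and 8.95, +0.18 ± 0.06, limma adjusted p = 0.0362). Dtwd1 was lower (6.68, 6.92 and 6.75, against 6.62, 7.09 and 7.51, -0.29 ± 0.07, limma adjusted p = 0.00246). Both lost their call without mouse 1 (limma adjusted p = 0.272 and 0.123), and Cct7 also without mouse 3 (0.253). The second probe set of Cct7 differed by 0.06 (limma adjusted p = 0.717). In the paper Cct7 was correlated with lesion size in aorta and not in liver. Some other genes of the list, such as Wdr73, were named from aorta. Mouse Apoe read 12.89, 12.93 and 12.97, against 12.63, 12.96 and 13.12, and was not called (-0.02 ± 0.04, limma adjusted p = 0.847).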

How the data were processed

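Liver RNA of each mouse was read on its own Affymetrix HT MG-430 PM array. The values used are the authors' log2 signals, deposited as 1 table and made by RMA (background correction, quantile normalization across arrays and a summary per probe set). GCOS and RMA are named in the notes that accompany the deposit, without versions, and no source used here states a correction for batches. Over 45037 probe sets (104 array controls left out) the values ran from 1.90 to 13.94, with array medians of 3.43 to 3.57. The platform annotation gave 1 symbol to 28898 probe sets, several to 551 (not named) and none here to 15588. These left 17097 genes, each taken at the probe set with the highest mean. RefSeq records of GRCm38.p6 served for names, gene order and promoter sequence, and the files name no build.

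In limma 3.58.1 (R 4.3.3), 1 mean per strain was fitted over all 220 mice (124 residual degrees of freedom), and the BUB/BnJ mean minus the unweighted average of 28 strain means was tested, two-sided, with Benjamini-Hochberg adjustment over 45037 probe sets. A second fit took 29 strain means, 1 against 28 (27 residual degrees of freedom). The scripts were tested on simulated data. Precision is limited by how many arrays each strain has. No 2 arrays held identical values.

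The members, 46 gene lists (12 of cell type markers) and tests were chosen with earlier results of these data known. Named genes were those standing apart on strain means with a level of at least 5, up to 12 in each direction. To these were added up to 3 called members per list and the measured genes of the list picked from the study. The 6 genes with the widest range among BUB/BnJ mice were also named. Other genes named, and the counts along the genome and of promoter motifs, were chosen after the values were seen. Alternatives were the classical mice only, filters, array centring, moderation of variances, comparison strains, weights, the probe set per gene, the threshold and leaving out each BUB/BnJ mouse.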

Additional observations from a re-analysis of the deposited data

How the results depend on the processing

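Probe sets called over mice numbered 2877, against 1199 with C57BL/6J alone as the comparison, 1890 with strains numbered under 100 and 1466 at an adjusted p under 0.01. Genes called numbered 1335, against 585 with C57BL/6J alone and 701 at the stricter threshold. Leaving out 1 BUB/BnJ mouse gave 1096 to 2225 probe sets and 502 to 996 genes. Classical mice only, array centring, the mean over mice, strains with over 1 mouse, a mean of at least 4, the moderation of variances and the other probe set rule kept counts of genes between 1242 and 1559.

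On strain means, 6 probe sets and 3 genes stood apart, against 2 and 1 with a mean of at least 4, 5 genes with the probe set of largest SD, and 8 to 19 probe sets and 3 to 8 genes without 1 mouse. Non-overlapping genes numbered 27, against 59 to 99 without 1 mouse, where fewer mice must clear the range.

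Of 159 called genes examined singly, 7 changed sign against C57BL/6J alone: H2-Ea (2.18), Apcs (0.10), Fgf21 (0.0292), Papss2 (-0.18), Cyp26a1 (-0.12), Foxq1 (-0.16) and Gdpd3 (0.0468). Against strains numbered under 100, 4 changed sign: Eif2ak2 (0.25), Ces1f (-0.0606), Sparcl1 (0.0437) and Esyt1 (0.0333). The cause of these changes was not tested. Without mouse 1, 2 and 3 in turn, 62, 40 and 42 lost their call. With 3 mice of 1 strain, differences near the spread between mice could not be told from it. No paired analysis was possible because replicate numbers were assigned in accession order and pair no mice across strains.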
